A study of Mus musculus with 26 samples.

Results

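The comparison described here sets the cells that fell into the basal sorting gate of Snai2-null mammary glands at 12 months of age against the stroma of the same glands. It rests on 4 of the 26 libraries of the series, 2 from the basal gate and 2 from stroma, which came from 2 pools of mice named A5 and A6. All mice were of the B6.129S1 strain, the null mice carried the genotype Snai2-LacZ/LacZ, and the wild-type 12-month pools A1 and A2 served as the comparison for the other genotype, with 2 basal and 2 stromal libraries. Each library holds RNA of cells pooled from 3 mice and sorted by fluorescence on the surface proteins EpCAM and CD49f. The p-values below rest on the spread of pooled libraries after differences shared by a pool were removed, not on that between mice. The allele is present in the whole animal, and the remaining groups of the series (luminal and luminal-basal fractions and 3-month mice) entered the filter on low counts and the shared estimate of the spread, and some of their levels are given beside the results.

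The stromal library of pool A5 was taken from the one labelled luminal-basal, and the library labelled stromal was set aside as luminal-basal: the 2 labels of pool A5 were treated as exchanged. The library was chosen by the measured levels of Col1a1 and Krt14. Col1a1, the gene of the main fibrillar collagen chain of fibroblasts, stood at 1218 CPM (counts scaled to a common library size) in the A5 library labelled luminal-basal and at 23.9 CPM in the one labelled stromal. Krt14, a keratin of basal epithelium, stood at 34.8 CPM and 1025 CPM in the same libraries. In pool A6 the labels and these genes ran together, with Col1a1 at 783 CPM in stroma and 20.2 CPM in the luminal-basal library. Over the 15917 genes tested, the A5 library labelled luminal-basal had a mean Pearson correlation of 0.926 with the stromal libraries of the series and 0.833 with the luminal-basal ones (log2 CPM), and the A5 library labelled stromal had 0.781 and 0.906. The latter library stood at 0.913 with the wild-type basal libraries, above its value with the luminal-basal ones. The gate libraries of A5 and A6 correlated at 0.831 with each other and at 0.843 and 0.768 with the stromal libraries. Because Col1a1 and Krt14 chose the library, their levels are given as description with no test and they are left out of the counts of their lists. Fibroblast, matrix and basal keratin genes that follow them share that choice. Many counts below are therefore followed by the count from a fit without the 2 exchanged libraries, in which pool A6 alone supplies stroma.

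Mammary epithelium consists of an inner luminal layer and an outer basal layer of contractile myoepithelial cells. CD49f is integrin alpha 6, which basal epithelial cells use to hold the basement membrane, and EpCAM is an epithelial adhesion protein. Integrin alpha 6 is also carried by endothelial cells and by the Schwann cells that ensheath nerves, so a gate of high CD49f and modest EpCAM can admit cells that are not epithelial. The markers followed first were Pecam1, an adhesion protein of endothelial junctions, Fabp4, a fatty-acid carrier of capillary endothelium and adipocytes, Cdh19, a cadherin of Schwann cells and their precursors, and Col1a1.

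Snai2, on chromosome 16 from 14705852 to 14709385 (GRCm38, plus strand), encodes the transcription factor Slug and is the gene disrupted in the null line. It had 1 and 0 counts in the null basal gate and 0 and 1 count in null stroma of pools A5 and A6, against 58.7 and 51.4 CPM in wild-type basal and 17.4 and 22.9 CPM in wild-type stroma of A1 and A2. Snai2 RNA was thus at or near 0 in all 4 null libraries and present in the wild-type ones. The 4 null libraries held 3194330 to 8862854 counts and 13285 to 19199 genes with at least 1 count. The basal gate of pool A6 had the fewest counts and the fewest genes of the 4. Mitochondrial ribosomal RNA took 15.6% and 20.6% of the counts in the gate of A5 and A6 and 28.0% and 24.7% in their stroma, and its part in the results was not tested.

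In the paired fit, 823 of 15917 genes were higher in the basal gate (5.17%) and 885 were lower (5.56%) at an adjusted p under 0.05 (edgeR's quasi-likelihood test, Benjamini-Hochberg adjustment). Without the 2 exchanged libraries the counts were 393 higher (2.28%) and 658 lower (3.82%) of 17234 genes. With 2 libraries a side each one carried weight: 1347 genes were higher and 2692 lower without the basal gate of A5, 337 and 321 without that of A6, 322 and 394 without the stroma of A5, and 115 and 239 without that of A6. The median log2 difference over all tested genes was -0.17, 24.3% of genes were higher in the basal gate in both pools and 36.1% were lower in both.

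**Figure D1:**
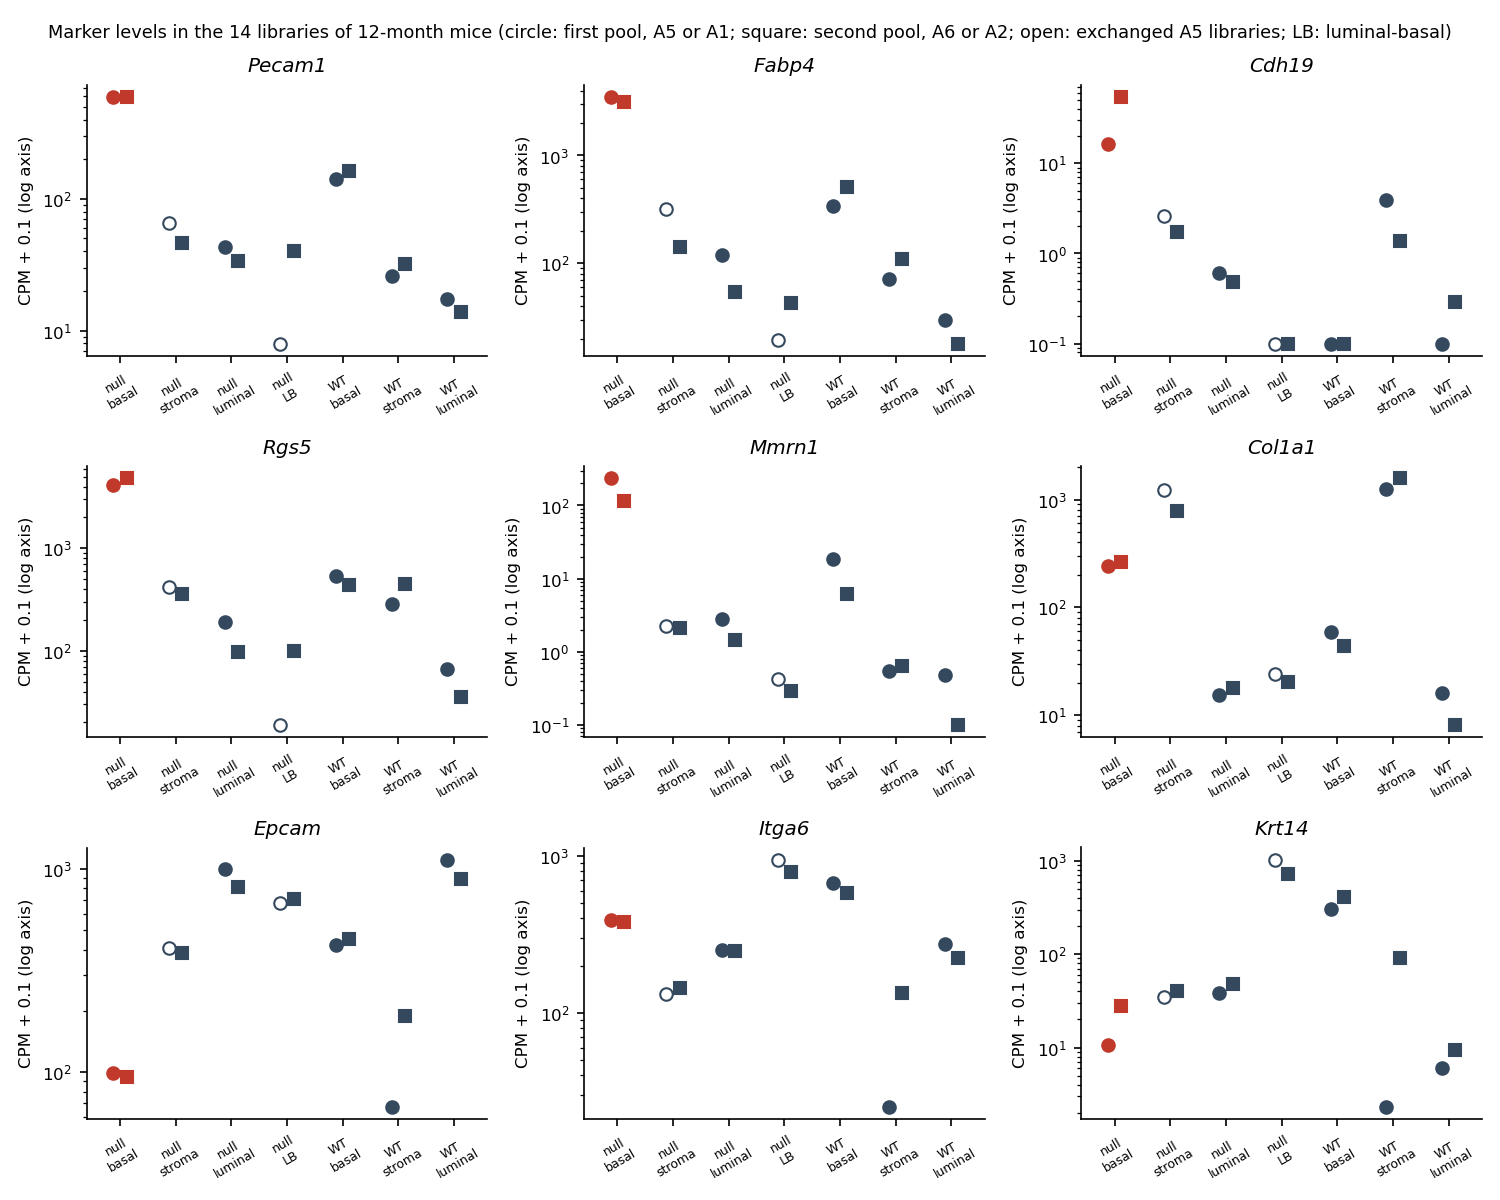
Levels of 9 marker genes (CPM plus 0.1, log axes) in the 14 libraries of 12-month mice, 1 point per library; circles are pools A5 or A1, squares pools A6 or A2, and open symbols the 2 exchanged A5 libraries, which stand under the group the rule gave them. Both null basal-gate libraries lie above every other library for Pecam1 (594 and 595 CPM), Fabp4, Cdh19, Rgs5 and Mmrn1, and Epcam is lower there (98.3 and 94.8 CPM) than in every group except wild-type stroma.

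Endothelial genes were the clearest feature of the gate. Pecam1 (chromosome 11, 106654217 to 106750628, minus strand) stood at 594 and 595 CPM in the basal gate of A5 and A6 and at 65.7 and 45.8 CPM in their stroma. The gate was about an order of magnitude above stroma in each pool, with no overlap. The log2 difference was 3.39 ± 0.58 (SE; edgeR adjusted p = 0.00159). Pecam1 kept its call in the fit without the exchanged libraries (3.43, edgeR adjusted p = 0.00411) and lost it when the stroma of A6 was left out (2.76, edgeR adjusted p = 0.0898). Of the 22 pan-endothelial genes listed, all were tested, 19 were higher in the gate, 0 were lower, and all 22 were higher in both pools, with a median log2 difference of 3.44. Over all tested genes 5.17% were called higher and 24.3% were higher in both pools. Of the 22, 13 were higher without the exchanged libraries. Without the stroma of A6 only 4 of the 22 passed, and the count lay at 10 to 16 when any 1 of the other 3 libraries was left out. As a bulk measurement this cannot tell more endothelial cells from more RNA per cell.

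The 4 pan-endothelial genes with the smallest p-values were Kdr, Esam, Emcn and Flt1. Kdr encodes VEGF receptor 2, the main signalling receptor for vascular growth, and stood at 306 and 256 CPM in the gate against 16.7 and 10.9 CPM in stroma. Emcn, the gene of the endothelial sialomucin endomucin, stood at 181 and 197 CPM against 19.6 and 15.3 CPM. Both genes were called in every alternative fit run. Esam, an adhesion molecule of endothelial tight junctions, differed by 3.59 ± 0.50 (log2, SE; edgeR adjusted p = 0.000286). It was called in every fit except the one with the labels as deposited (edgeR adjusted p = 0.0674). Cdh5 (chromosome 8, 104101625 to 104144511, plus strand), the gene of the vascular cadherin that defines endothelial junctions, reached 753 and 913 CPM in the gate and 63 and 29.9 CPM in stroma. Ramp2, Plvap and Clec14a were the 3 listed genes that did not pass the test, with edgeR adjusted p-values of 0.281, 0.0514 and 0.07.

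Genes with which capillaries take up and move fatty acids were high in the gate. Fabp4 (chromosome 3, 10204088 to 10208576, minus strand) stood at 3495 and 3100 CPM in the gate and 317 and 140 CPM in stroma. Each gate library exceeded each stromal library several times over. The difference was 3.91 ± 0.61 (log2, SE; edgeR adjusted p = 0.000966), it was 4.06 without the exchanged libraries (edgeR adjusted p = 0.0218), and it was not called without the stroma of A6 (3.26, edgeR adjusted p = 0.101). Gpihbp1 (chromosome 15, 75596628 to 75599481, plus strand) anchors lipoprotein lipase to the luminal face of capillaries. It stood at 359 and 233 CPM against 8.42 and 4.24 CPM, a log2 difference of 5.62 ± 0.49 (SE; edgeR adjusted p = 1.9e-05) that was called in every alternative. Aqp1, the endothelial water channel, was at 2086 and 1406 CPM against 143 and 99.3 CPM, and was also called in every alternative. Meox2, a homeobox gene of capillary endothelium, was at 202 and 321 CPM against 26 and 33.7 CPM and lost its call with the labels as deposited (edgeR adjusted p = 0.152).

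In all, 11 of the 15 genes of this list were higher, 0 were lower and the median log2 difference was 3.14. In the fit without the exchanged libraries 7 were higher and 1 lower, and without the stroma of A6 4 were higher. Lpl itself, the lipase that Gpihbp1 holds, was at 523 and 446 CPM in the gate and 287 and 532 CPM in stroma, and its groups overlapped. The fatty-acid transporter Slc27a1 was at 14.3 and 4.82 CPM in the gate against 27.1 and 23.8 CPM (edgeR adjusted p = 0.0724).

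Lymphatic genes were among the largest differences. Mmrn1 (chromosome 6, 60924976 to 60989378, plus strand), the gene of the secreted protein multimerin, was at 235 and 116 CPM in the gate and 2.16 and 2.02 CPM in stroma. Ccl21a (chromosome 4, 42772860 to 42773993, minus strand), the chemokine that draws dendritic cells into lymphatics, was at 354 and 195 CPM against 5.12 and 4.44 CPM. Both passed in every alternative fit, with log2 differences of 6.33 ± 0.70 and 5.79 ± 0.68 (SE; edgeR adjusted p = 6.49e-05 and 8.67e-05). Ccl21a has near-identical neighbouring copies, so reads may have been split among or lost between them. Flt4, the VEGF receptor of lymphatic endothelium, was at 340 and 318 CPM against 15.2 and 4.84 CPM, and Lyve1, the hyaluronan receptor of lymphatic capillaries, at 210 and 134 CPM against 16.3 and 5.65 CPM. Reln, which encodes the secreted glycoprotein reelin, was at 172 and 135 CPM against 7.28 and 8.28 CPM. Reln was not particular to the gate. It had 826 and 438 counts in the null luminal-basal libraries of A5 (by the rule) and A6. In wild-type basal of A1 and A2 it had 217 and 913 counts. Of the 7 lymphatic genes 5 were higher, and the same number passed without the exchanged libraries, against 3 without the stroma of A6, where Flt4 (edgeR adjusted p = 0.065) lost its call. Pdpn, a mucin of lymphatic endothelium that fibroblasts and basal epithelium also express, was lower (4.46 and 3.1 CPM against 14.8 and 22.6 CPM; edgeR adjusted p = 0.0117). Prox1, the transcription factor that sets lymphatic identity, was at 81.8 and 31.4 CPM against 27.3 and 17.8 CPM and did not pass (edgeR adjusted p = 0.207).

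Genes that divide arteries from veins passed less evenly. Of the 9 arterial genes 4 were higher. Dll4, a Notch ligand of arterial and sprouting endothelium, was at 60.9 and 128 CPM against 3.53 and 6.06 CPM, and Sema3g, a secreted semaphorin, at 62.2 and 56.5 CPM against 4.32 and 0.606 CPM. Dll4 and Sema3g lost their calls without the stroma of A6 (edgeR adjusted p = 0.0651 and 0.11), and that fit called 0 of the 9. Efnb2, the arterial ephrin ligand, was at 222 and 261 CPM in the gate, 79.8 and 68.6 CPM in stroma and 280 and 285 CPM in wild-type basal cells. Its call (edgeR adjusted p = 0.0425) ended when any 1 of the 4 libraries was left out (edgeR adjusted p = 0.0763 to 0.465). Of the 7 venous genes 2 were higher, Vwf, the clotting factor stored by endothelium (140 and 208 CPM against 53.3 and 16.8 CPM), and Selp, the adhesion protein P-selectin (190 and 397 CPM against 87 and 48.8 CPM). Vwf lost its call without the stroma of A6 (edgeR adjusted p = 0.101), and Selp lost its call without the exchanged libraries (edgeR adjusted p = 0.0704) and without the basal gate or the stroma of A6 (edgeR adjusted p = 0.341 and 0.39). The venous regulator Nr2f2 was at 75.8 and 88.9 CPM against 36.8 and 41 CPM (edgeR adjusted p = 0.18).

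**Figure D2:**
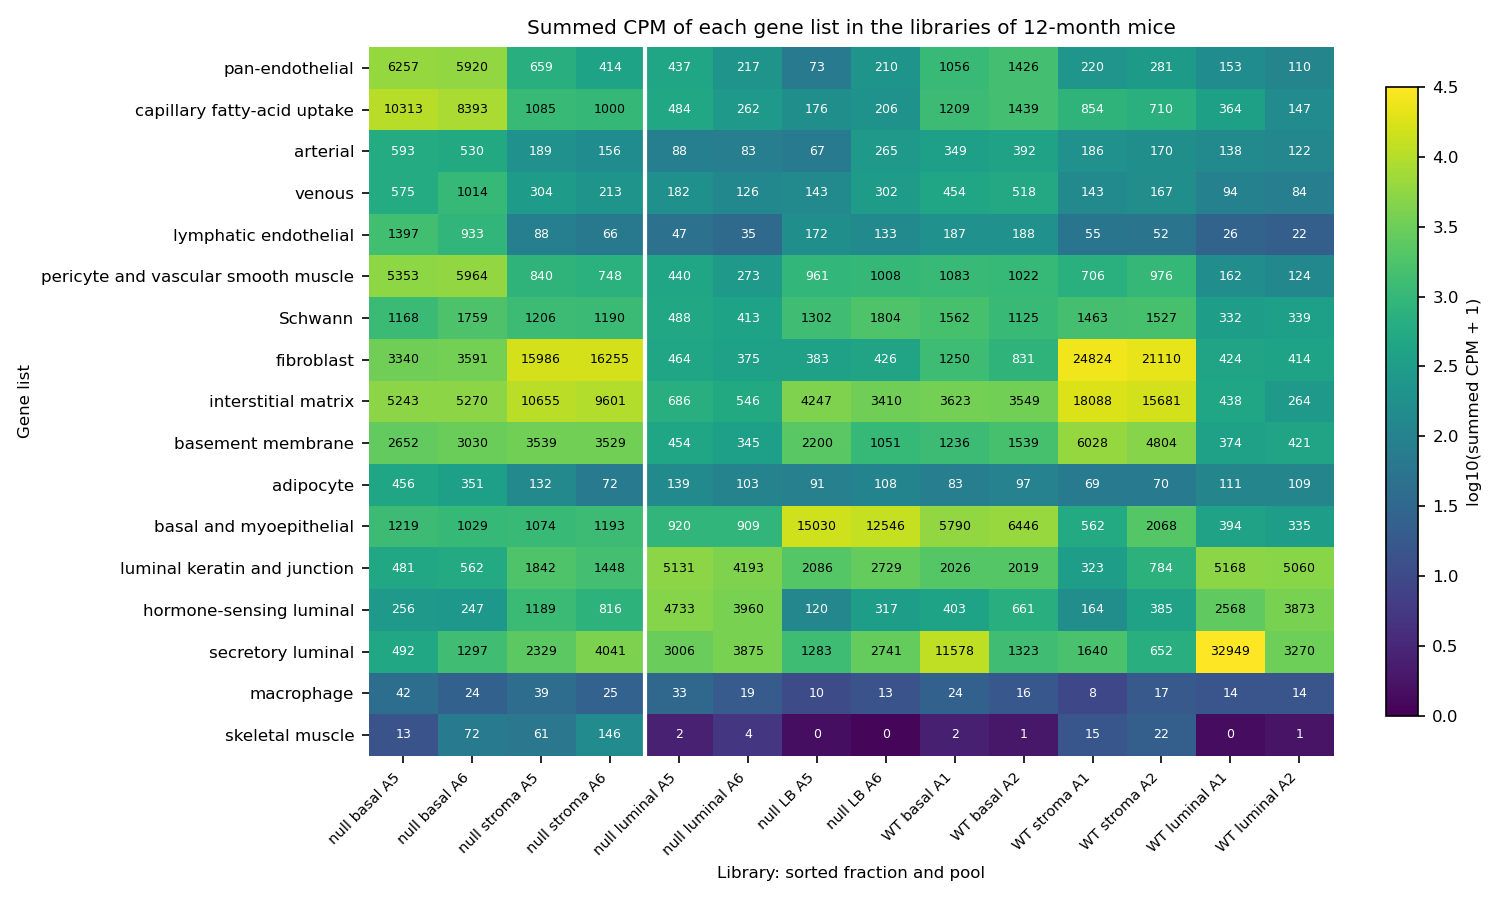
Summed CPM of the genes of 17 lists (rows) in the 14 libraries of 12-month mice (columns), coloured by log10 of the sum plus 1 and printed in each cell; the white line divides the 4 libraries compared from the others. The pan-endothelial sum is 6257 and 5920 CPM in the null basal gate against 659 and 414 CPM in null stroma. The fibroblast and the basal and myoepithelial sums include Col1a1 and Krt14, which chose the A5 library, and are shown as description.

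Most receptors that endothelial cells use to read vascular growth signals were higher in the gate. VEGF ligands act through Kdr, Flt1 and Flt4, with the neuropilins as co-receptors, and angiopoietins act through Tek with Tie1 as its partner. Of 13 vascular receptor genes 9 were higher in the gate, 1 was lower and 12 were higher in both pools, with a median log2 difference of 3.01. Of the 9, Kdr, Flt1, Tek and Tie1 are also in the pan-endothelial list, Flt4 in the lymphatic and Notch3 in the pericyte list. There were 6 higher without the exchanged libraries, and without the stroma of A6 2 were. The windows of 250 bases before the start site of the 5 VEGF and angiopoietin receptor genes are shown because these genes were high together in the gate. They come from RefSeq (GRCm38.p6) and are read on the strand of the gene: Kdr at chr5:75978456-75978705 (minus), Flt1 at chr5:147726012-147726261 (minus), Flt4 at chr11:49609429-49609678 (plus), Tek at chr4:94739039-94739288 (plus) and Tie1 at chr4:118489850-118490099 (minus). Capitals mark AGGAAG, a sequence that factors of the ETS family can bind, searched on both strands. Other forms of the ETS site were not searched for, so a window without capitals may still hold one.
Kdr: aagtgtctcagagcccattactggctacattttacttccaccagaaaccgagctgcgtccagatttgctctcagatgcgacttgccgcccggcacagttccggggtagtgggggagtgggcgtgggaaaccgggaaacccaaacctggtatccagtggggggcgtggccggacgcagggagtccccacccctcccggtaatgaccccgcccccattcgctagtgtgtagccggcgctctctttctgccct
Flt1: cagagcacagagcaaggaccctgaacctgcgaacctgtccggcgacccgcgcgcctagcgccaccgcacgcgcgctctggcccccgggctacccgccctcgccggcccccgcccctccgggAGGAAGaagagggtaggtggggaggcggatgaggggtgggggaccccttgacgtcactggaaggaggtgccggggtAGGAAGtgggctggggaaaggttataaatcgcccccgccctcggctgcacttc
Flt4: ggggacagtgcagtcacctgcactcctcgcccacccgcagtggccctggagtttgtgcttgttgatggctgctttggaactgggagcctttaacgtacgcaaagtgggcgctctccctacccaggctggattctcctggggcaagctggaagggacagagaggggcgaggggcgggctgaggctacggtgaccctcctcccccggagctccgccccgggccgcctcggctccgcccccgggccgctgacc
Tek: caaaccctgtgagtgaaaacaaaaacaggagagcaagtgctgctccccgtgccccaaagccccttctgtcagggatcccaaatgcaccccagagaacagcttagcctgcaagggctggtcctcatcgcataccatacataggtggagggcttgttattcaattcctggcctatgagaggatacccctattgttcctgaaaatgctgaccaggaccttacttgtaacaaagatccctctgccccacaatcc
Tie1: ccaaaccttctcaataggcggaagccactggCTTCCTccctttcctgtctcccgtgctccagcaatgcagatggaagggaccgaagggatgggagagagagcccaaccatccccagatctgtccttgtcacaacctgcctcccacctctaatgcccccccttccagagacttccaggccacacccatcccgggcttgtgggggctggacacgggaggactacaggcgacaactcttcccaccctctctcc

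The motif occurred in 2 of these 5 windows, and in 29.5% of the 32851 windows of the same length in the table. Flt1 held it 53 and 129 bases before the start site and Tie1 held it 219 bases before, on the opposite strand. Of the 9 receptor genes higher in the gate 8 had an entry in the table. A match is a run of letters and was not tested as a binding site.

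Flt1 was at 878 and 982 CPM in the gate and 57.5 and 39.4 CPM in stroma, and lost its call only without the stroma of A6 (3.76, edgeR adjusted p = 0.068). Tie1 was at 77.2 and 55.5 CPM against 7.62 and 4.04 CPM. Tek, which pericytes and some stromal cells also express, was at 143 and 125 CPM against 39 and 43.6 CPM (edgeR adjusted p = 0.0373). The gate thus stood higher for each of them, by the least for Tek. Nrp2, a co-receptor for VEGF-C, was at 273 and 453 CPM against 47.5 and 40.8 CPM and was called in every alternative. Notch4, an endothelial Notch receptor, was at 97.7 and 15.5 CPM against 8.07 and 1.61 CPM, and Aplnr, the apelin receptor of veins and sprouts, at 48.7 and 260 CPM against 7.51 and 7.67 CPM. The receptor that was lower was Pdgfra, the PDGF receptor of fibroblasts (83.8 and 56.5 CPM against 526 and 530 CPM).

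The ligands were less one-sided. Of 14 vascular ligand genes 2 were higher, Dll4 and Pdgfb, the PDGF chain with which endothelium recruits pericytes (16.1 and 31.4 CPM against 2.84 and 1.01 CPM; edgeR adjusted p = 0.0172). Vegfd, listed in the counts under its older symbol Figf and a ligand of Flt4, was lower (13.4 and 0 CPM against 66.6 and 64.6 CPM; edgeR adjusted p = 0.0151). Its call was absent without the exchanged libraries (edgeR adjusted p = 0.102) and without the stroma of A5, the basal gate of A6 or the stroma of A6. Pdgfb lost its call without the basal gate or the stroma of A6 (edgeR adjusted p = 0.102 and 0.254), and 0 of the 14 passed in the latter fit. Vegfa, the principal ligand of Kdr, was at 140 and 252 CPM in the gate and 240 and 259 CPM in stroma. None of 6 Notch and VEGF target genes passed the edgeR test, and 1 passed with DESeq2. Hes1, the most abundant of these targets, was at 222 and 126 CPM against 66.3 and 139 CPM.

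Pericytes, the contractile cells on capillary walls, were represented by 9 tested genes of 10, of which 3 were higher. Rgs5 (chromosome 1, 169655501 to 169695813, plus strand), a signalling regulator that marks pericytes, was at 4173 and 4819 CPM in the gate and 416 and 355 CPM in stroma, a log2 difference of 3.52 ± 0.71 (SE; edgeR adjusted p = 0.00479). The difference was 3.31 without the exchanged libraries, where it missed the threshold (edgeR adjusted p = 0.0699). It also missed it without the stroma of A5, the basal gate of A6 or the stroma of A6 (edgeR adjusted p = 0.0737 to 0.199). Notch3, a Notch receptor of mural cells, was at 313 and 336 CPM against 103 and 90 CPM and lost its call without the stroma of A6 (edgeR adjusted p = 0.0616). Mcam, an adhesion protein of pericytes and endothelium, was at 56.6 and 127 CPM against 17.5 and 18 CPM and was not called without the exchanged libraries (edgeR adjusted p = 0.129). Abcc9 (524 and 401 CPM against 135 and 106 CPM), a potassium channel subunit, and Pdgfrb (160 and 145 CPM against 89 and 70.2 CPM), the pericyte PDGF receptor, were higher in both pools without passing (edgeR adjusted p = 0.124 and 0.314). Fibroblasts express Pdgfrb as well.

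**Figure D3:**
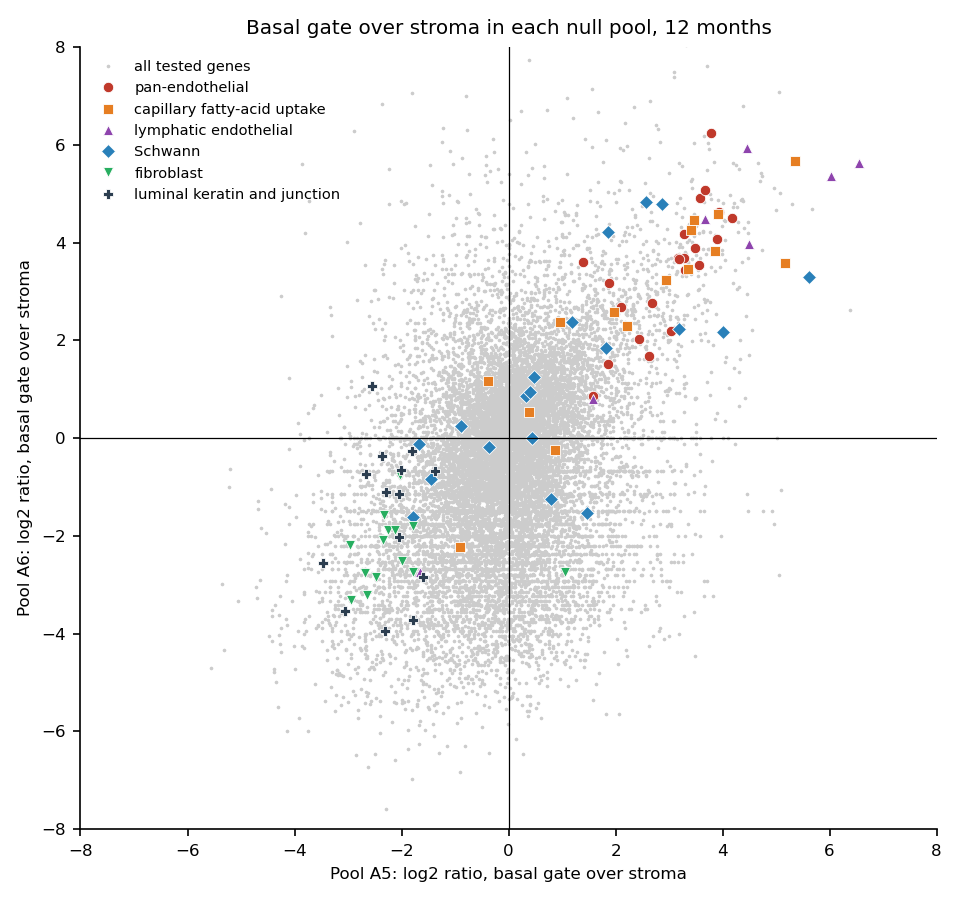
Log2 ratio of basal gate over stroma in pool A5 (x axis) and in pool A6 (y axis) for all 15917 tested genes (grey) and the members of 6 lists (coloured). The 22 pan-endothelial genes lie in the upper right, higher in both pools, and most fibroblast and luminal genes lie in the lower left.

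Nerve-associated genes were present at lower levels and differed between the pools. Cdh19 (chromosome 1, 110888326 to 110977584, minus strand) was at 16.5 and 54.8 CPM in the gate and 2.5 and 1.61 CPM in stroma. The lower gate library still lay above both stromal ones, and the level in A6 was the higher. The log2 difference was 3.92 ± 0.98 (SE; edgeR adjusted p = 0.0205) and 4.60 without the exchanged libraries (edgeR adjusted p = 0.0435). Cdh19 missed the threshold without the stroma of A5, the basal gate of A6 or the stroma of A6 (edgeR adjusted p = 0.0658, 0.259 and 0.288). Kcna1, a potassium channel of myelinated axons, was at 65.9 and 46.5 CPM against 1.02 and 4.44 CPM, and Art3, a surface ADP-ribosyltransferase, at 62.8 and 36.2 CPM against 6.6 and 7.47 CPM. Both lost their calls without the exchanged libraries (edgeR adjusted p = 0.103 and 0.144). L1cam, a neural adhesion molecule, and Mbp, the myelin basic protein gene, were higher too.

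Of 22 Schwann genes listed, 19 were tested, 6 were higher and 1 was lower, with a median log2 difference of 0.78. Without the exchanged libraries 3 were higher, Cdh19 and L1cam among them, and leaving out single libraries gave 1 to 5. Sox10, the transcription factor that defines the Schwann lineage and that mammary epithelium also uses, was at 22.5 and 44.4 CPM against 16.1 and 18.6 CPM (edgeR adjusted p = 0.216). Erbb3, the neuregulin receptor of Schwann cells and also of luminal epithelium, was the gene called lower (edgeR adjusted p = 0.0144). It was at 16.7 and 13.1 CPM against 58.5 and 41 CPM. In both pools 11 of the 19 Schwann genes were higher (57.9%, against 24.3% of all genes) and 4 were lower (21.1%, against 36.1%). Scn7a was lower in both pools without a call, with 868 and 675 counts in the gate and 4066 and 2072 in stroma. Of 12 nerve growth factor and neuregulin genes 11 were tested, with L1cam higher and Erbb3 lower. Neither call held in every alternative fit. That of L1cam ended without the basal gate or the stroma of A6. That of Erbb3 ended in a fit of only the libraries compared, without the exchanged libraries and with pool A6 alone. It also ended without the stroma of A5 or the basal gate of A6. Of the pigment-cell genes, which share neural crest origin, Mitf was lower (13.2 and 11 CPM against 79.2 and 77.1 CPM), and Dct, Pmel, Tyrp1 and Mlana fell under the filter on low counts.

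Fibroblast genes were lower in the gate than in stroma and were not absent from it. Col1a1 (chromosome 11, 94936224 to 94953042, plus strand) was at 244 and 262 CPM in the gate and 1218 and 783 CPM in stroma. The same gene was at 59 and 43.9 CPM in the wild-type basal libraries and at 15.2 and 17.6 CPM in the null luminal ones. Of the other 13 fibroblast genes 9 were lower, 0 were higher and the median log2 difference was -2.22. These genes follow Col1a1, which helped choose the stroma of A5, so their calls are a description. Without the exchanged libraries 1 of the 13 was lower, Fbn1, the gene of the microfibril protein fibrillin (181 and 132 CPM against 718 and 753 CPM), and single libraries left out gave 0 to 3. Dcn, a small collagen-binding proteoglycan, was at 1093 and 1322 CPM against 5531 and 5641 CPM. Col3a1, a fibrillar collagen, was at 245 and 203 CPM against 1583 and 1387 CPM and Pi16, a marker of adventitial fibroblasts, at 21.1 and 23.8 CPM against 164 and 241 CPM. The replicate block matters here: 4 of the 13 were called without it.

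Of 16 interstitial matrix genes 10 were lower and 0 higher. They share the choice of the A5 stroma by Col1a1, so these calls and p-values are a description as well. Mmp2, a matrix metalloproteinase, was at 72.5 and 41 CPM against 458 and 364 CPM (edgeR adjusted p = 0.000136). Postn, which encodes periostin, was at 574 and 482 CPM against 1744 and 1733 CPM and was called in every alternative. The collagen cross-linking enzymes Lox and Loxl1 were at 19.6 and 20.3 CPM against 158 and 110 CPM, and at 5.04 and 1.72 CPM against 49.1 and 46 CPM. Without the exchanged libraries 3 of the 16 were lower, and 5 were without the replicate block. None of 11 basement membrane genes passed in either direction, and the smallest edgeR adjusted p among them was 0.081, of Lamb1. Hspg2, the gene of perlecan, was at 519 and 372 CPM against 370 and 260 CPM and Col4a1, a collagen chain of vascular and epithelial basement membranes, at 319 and 512 CPM against 260 and 312 CPM. With no filter on low counts, or in a fit of only the libraries compared, 2 of the 11 were lower.

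Adipocyte genes gave a mixed record. Adipoq (chromosome 16, 23146536 to 23158028, plus strand), the adiponectin gene that defines adipocytes, had 1 and 7 counts in the gate and 4 and 0 in stroma. Plin1, the coat protein of fat droplets, had 5 and 3 counts against 5 and 0. Cidec, another droplet protein, had 8 and 37 counts against 4 and 1, and Cfd, the adipsin gene, 17 and 24 against 0 and 1. The counts of these 4 markers were low on both sides, and Cfd was called higher (edgeR adjusted p = 0.0377). Of the 7 genes of the list that were tested 4 were higher, namely Lipe, Pparg, Pnpla2 and Cfd, and without the exchanged libraries 1 was, Lipe. Lipe, a hormone-sensitive lipase, was at 86.7 and 121 CPM against 19 and 10.7 CPM, and Pparg, a nuclear receptor that fat cells and capillary endothelium both use, at 186 and 116 CPM against 18.2 and 14.9 CPM. Leaving out single libraries gave 0 to 2 adipocyte genes higher, with 0 without the basal gate or the stroma of A6. Pparg missed the threshold when any 1 of the 4 libraries was left out (edgeR adjusted p = 0.079 to 0.251).

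Epithelial RNA was low in the gate that is named for basal epithelium. Krt14 was at 10.5 and 27.9 CPM in the gate and 34.8 and 40.6 CPM in stroma, against 308 and 405 CPM in wild-type basal libraries. Krt5, the partner keratin, was at 33.7 and 36.5 CPM against 57.1 and 49 CPM in stroma and 324 and 466 CPM in wild-type basal. Krt5 was lower in the gate than in stroma in each pool without passing the test (edgeR adjusted p = 0.687). Of the 16 basal and myoepithelial genes other than Krt14, 1 was higher (Itgb4), 1 was lower and 14 did not pass. The median log2 difference of the 16 was -0.38, and it was -0.59 without the exchanged libraries. Itgb4 was not called with the size factors of DESeq2 in place of TMM (edgeR adjusted p = 0.0511). Acta2, the smooth muscle actin of myoepithelium and of vessel walls, was at 146 and 96.1 CPM against 180 and 201 CPM.

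The sort antigens themselves split. Epcam (chromosome 17, 87635979 to 87651129, plus strand) was at 98.3 and 94.8 CPM in the gate and at 409 and 387 CPM in stroma, a log2 difference of -2.04 ± 0.43 (SE; edgeR adjusted p = 0.00664). Itga6 (chromosome 2, 71745616 to 71858416, plus strand), the gene of CD49f, was at 390 and 377 CPM against 132 and 144 CPM, a log2 difference of 1.48 ± 0.46 (SE; edgeR adjusted p = 0.048). Itgb1 and Itgb4, which encode the beta chains that pair with it, were at 352 and 509 CPM against 224 and 214 CPM and at 56 and 97.5 CPM against 26.8 and 24.4 CPM. RNA of the integrin chains was thus higher in the gate and that of Epcam was higher in stroma. The cells were sorted on the proteins of Epcam and Itga6, so the tests of these genes are not independent of the sort. The calls of Itga6, Itgb1 and Itgb4 ended without the exchanged libraries (edgeR adjusted p = 0.303, 0.14 and 0.212). Itga6 also lost its call when any 1 of the 4 libraries was left out (edgeR adjusted p = 0.162 to 0.305), and Epcam did without the basal gate or the stroma of A6 (edgeR adjusted p = 0.0757 and 0.0554).

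Luminal genes were lower in the gate than in stroma, and the stromal libraries themselves carried them. Of 14 luminal keratin and junction genes 8 were lower and 13 were lower in both pools, with a median log2 difference of -1.65, and 3 of the 14 were lower without the exchanged libraries or without the stroma of A5 alone. Krt8 was at 44.4 and 7.92 CPM in the gate and 153 and 109 CPM in stroma, and Krt18, its partner, at 48.9 and 76.5 CPM against 202 and 170 CPM. Grhl2, a transcription factor of epithelial junctions, was at 3.88 and 1.72 CPM against 34.9 and 23.6 CPM and was called in every alternative. Of 9 hormone-sensing luminal genes 6 were lower, and 3 were without the exchanged libraries and 1 without the basal gate or the stroma of A6. Pgr, the progesterone receptor gene, was at 10.9 and 6.89 CPM against 102 and 77.1 CPM. Of 12 secretory luminal genes 4 were lower, among them Wfdc18 (7.76 and 3.45 CPM against 28.3 and 62.2 CPM), 2 were without the exchanged libraries and 0 without the basal gate of A6. The luminal keratin and junction genes summed to 1842 and 1448 CPM in null stroma and to 323 and 784 CPM in wild-type stroma, and their part in these differences was not tested.

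**Figure D4:**
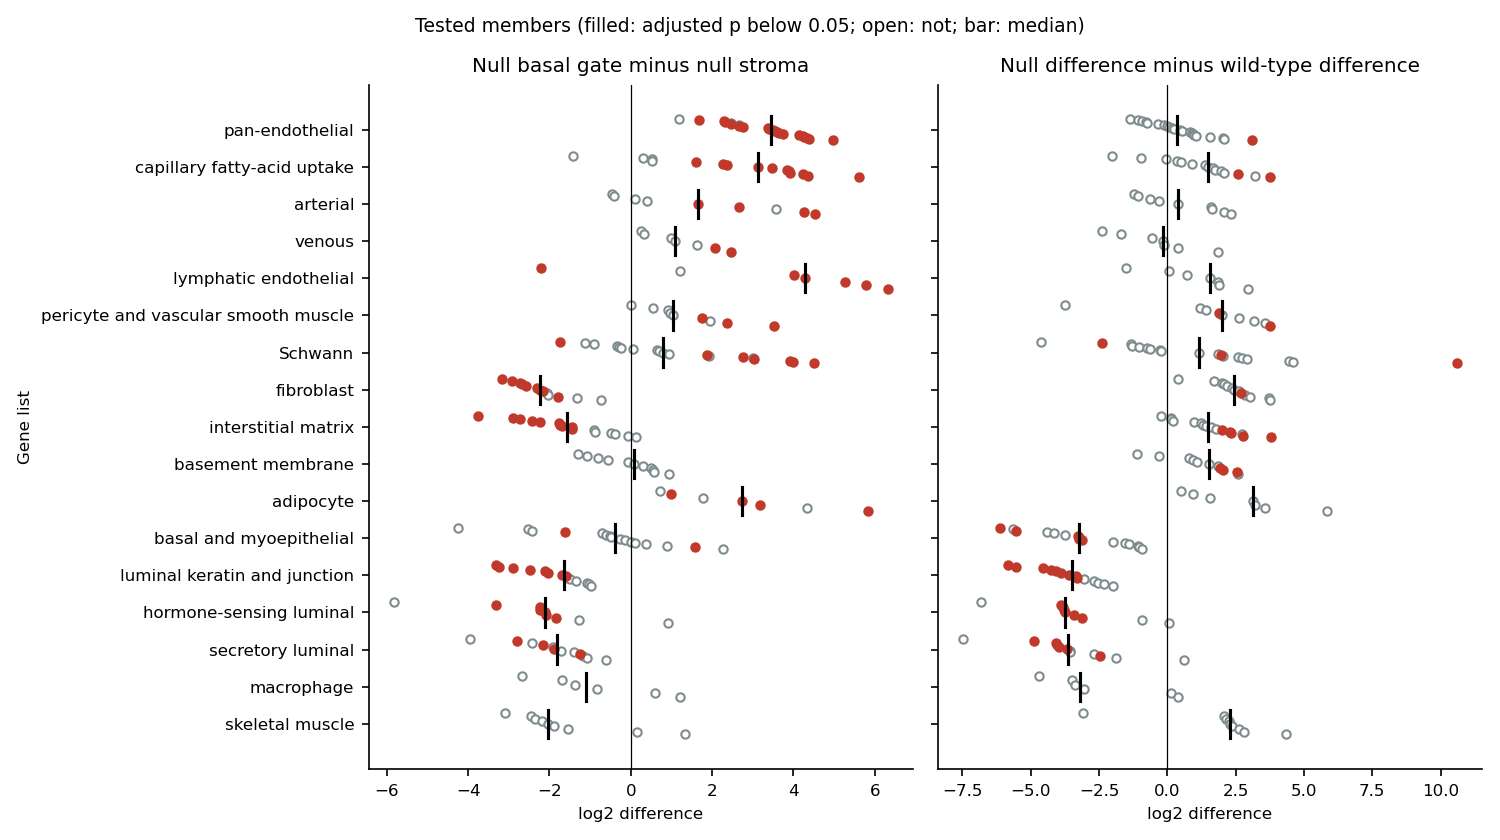
Log2 difference of each tested list member, 1 point per gene, filled where the edgeR adjusted p was below 0.05, with the median of the list as a bar; left, null basal gate minus null stroma, right, that difference minus the wild-type one. Col1a1 and Krt14 are left out. The pan-endothelial median is 3.44 on the left and 0.35 on the right, and the luminal keratin and junction median is -1.65 on the left and -3.49 on the right; fitted values of genes with 0 counts in a group, such as Cdh19 at the far right, are no bound.

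Blood cells were scarce on both sides. Ptprc, the pan-leukocyte gene CD45, had 11 and 1 counts in the gate and 12 and 17 in stroma. Of 6 macrophage and 5 lymphocyte genes tested none passed the edgeR test, and the summed macrophage level was 41.9 and 24.5 CPM against 39.4 and 25.2 CPM. DESeq2 called 1 lymphocyte gene, and at an unadjusted p the whole comparison had 4338 genes under 0.05. The T cell gene Cd3e was at 1.55 and 3.1 CPM against 16.1 and 13.1 CPM (edgeR adjusted p = 0.0639). The mast cell list had 0 counts in both gate libraries. Skeletal muscle genes, from the body wall beneath the gland, summed to 13.4 and 72 CPM in the gate and 60.7 and 146 CPM in stroma, and none of 9 passed the edgeR test. In other fits 1 was lower with DESeq2, 2 with no filter on low counts, 1 with pool A6 alone and 1 without the basal gate of A5. None of the 12 immediate-early and stress genes passed with edgeR or DESeq2. Fosb, which responds to cell handling, was at 7788 and 7022 CPM against 8831 and 7196 CPM. Of 11 proliferation genes 1 was higher, the replication licensing gene Mcm3, at 7.56 and 35.5 CPM against 2.62 and 3.83 CPM, and its call ended without the basal gate of A6 or either stromal library (edgeR adjusted p = 0.0881 to 0.409).

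The largest rises by the rule for named genes were mostly genes with few counts in stroma, and several rested on 1 gate library. Ffar2, a receptor for short-chain fatty acids, was at 2.52 and 60 CPM in the gate with 0 counts in both stromal libraries, a mean at least 143-fold higher when stroma is set to 3 counts over the group. Rtp3, a receptor-transporting protein, was at 27.5 and 1.72 CPM and also had 0 counts in stroma, at least 67-fold on the same floor. Col10a1, a collagen of hypertrophic cartilage, was at 1.36 and 92 CPM against 0.455 and 0.404 CPM, and Syna, a syncytin gene of retroviral origin, at 5.24 and 87.9 CPM against 0.227 and 0 CPM. Kif26a, a kinesin relative that acts in enteric nerve development, was at 11.6 and 13.4 CPM against 0.114 and 0 CPM. Slc28a2, a nucleoside transporter, was at 52.4 and 72 CPM against 1.25 and 0.202 CPM. It was called in every alternative, whereas Ffar2, Rtp3, Col10a1, Syna and Kif26a each lost their calls in at least 3, the fit without the stroma of A6 among them. Vsig2, Fam57b, Phyhipl, Cnksr2 and Mlip completed the 12 with Mmrn1, with log2 differences of 6.32 to 7.70 for those 5, and each of the 5 lost its call in at least 5 alternatives, the fit without the exchanged libraries among them.

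The largest falls were of genes at or near 0 in both gate libraries. Fgf10, the fibroblast growth factor that the mammary mesenchyme sends to epithelium, was at 0.776 and 0.345 CPM in the gate and 23 and 17.8 CPM in stroma, and Bmper, a secreted modulator of BMP signalling, at 1.94 and 0.345 CPM against 40 and 43 CPM. Thbs4, a matrix thrombospondin, was at 0.776 and 1.38 CPM against 52.3 and 44.6 CPM. Ctnnd2, a catenin of cell junctions, was at 0 and 0.345 CPM against 6.48 and 21.2 CPM, and was called in every alternative with Sowahb (0.388 and 0.345 CPM against 13.9 and 10.7 CPM). Tac1, the precursor gene of substance P, and Tph1, which encodes the enzyme that starts serotonin synthesis, were at 0 and 1.03 CPM against 6.26 and 16.6 CPM, and at 0.776 and 0 CPM against 10.2 and 15.7 CPM. Tmem132c, Cyp2f2, Sv2c, Crabp1 and Rbp4 completed the 12, with log2 differences of -6.36 to -4.44. Fgf10, Bmper, Sv2c and Tph1 lost their calls only with the labels as deposited. Crabp1 lost its call without the exchanged libraries and when any 1 of the 4 libraries was left out (edgeR adjusted p = 0.0787 to 0.353). Thbs4 and Tmem132c lost theirs without the basal gate of A6, Tmem132c, Cyp2f2 and Rbp4 without the stroma of A5, and Tac1 and Rbp4 without the stroma of A6 (edgeR adjusted p = 0.0545 to 0.101).

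Whether the gate differed from stroma in the same way in wild-type glands was tested as an interaction. The null and wild-type pools are different mice, so genotype and pool cannot be told apart. The difference was higher in null glands (more positive or less negative) for 288 genes (1.81%) and lower for 577 (3.63%). Without the exchanged libraries the counts were 144 (0.836%) and 427 (2.48%). The median interaction over all genes was -0.13 on the log2 scale. Single libraries left out gave 24 to 776 genes higher and 142 to 1947 lower, the extremes being without the wild-type basal library of A1, the null basal gate of A5 and the wild-type stroma of A1.

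For most listed endothelial genes the wild-type basal gate was also above its stroma. Pecam1 was at 142 and 164 CPM in wild-type basal and 25.6 and 31.9 CPM in wild-type stroma, and the interaction was 0.97 ± 0.75 (log2, SE; edgeR adjusted p = 0.502). Fabp4 was at 342 and 505 CPM against 71.4 and 109 CPM, with an interaction of 1.68 ± 0.78 (log2, SE; edgeR adjusted p = 0.234). Levels in the null gate were several times those of the wild-type gate for both genes. The interaction of Fabp4 was called in 1 of 16 alternatives, the fit with no filter on low counts (1.69, edgeR adjusted p = 0.00222). Of the 22 pan-endothelial genes 1 had a higher difference in null glands, Tek (3.11 on the log2 scale, edgeR adjusted p = 0.0166), and 0 had a lower one. In wild-type glands Tek was lower in the gate, with 80 and 275 counts in basal and 655 and 398 in stroma of A1 and A2. Tek was not called without the exchanged libraries. A p that misses the threshold does not show that the differences were equal.

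For some receptor, mural and matrix genes the gate-to-stroma difference was higher in null glands, that is, more positive or less negative. Over all tested genes 1.81% were called so. Of the 13 vascular receptors 5 were so, namely Tek, Nrp1, Nrp2, Pdgfrb and Notch3, and without the exchanged libraries 1 was. Pdgfrb was at 26.3 and 19.8 CPM in wild-type basal and 178 and 140 CPM in wild-type stroma, where the null gate had stood at 160 and 145 CPM. Of the 9 pericyte genes 2 were called, Pdgfrb and Notch3, and 1 without the exchanged libraries or without the replicate block. Of 11 basement membrane genes 3 were called, Lama4 (176 and 195 CPM in the null gate, 50.1 and 51.3 CPM in wild-type basal), Hspg2 and Col4a1, and 2 without the exchanged libraries. Of 16 interstitial matrix genes 5 were called (0 without the exchanged libraries and 1 without the replicate block), with Col6a3, a chain of the microfibrillar collagen, at 243 and 249 CPM in the null gate and 28.7 and 29.1 CPM in wild-type basal. Col6a3 was below its stroma in both genotypes, by less in null glands (401 and 300 CPM in null stroma, 591 and 512 CPM in wild-type stroma). Of 15 capillary genes Meox2 and Lpl were called, and 0 without the exchanged libraries. Without the wild-type basal library of A1, 0 genes of these 5 lists were called.

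Cdh19 had 0 counts in both wild-type basal libraries of 12 months and 3.87 and 1.26 CPM in wild-type stroma. With the wild-type group set to 3 counts, the null gate was at least 128-fold higher. The wild-type basal libraries of 3 months, F79 and F81, held 4.78 and 5.27 CPM. The fitted interaction was called (edgeR adjusted p = 0.00717) and lost its call without the basal or the stromal library of A1 (edgeR adjusted p up to 0.0732).

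Epithelial genes ran the other way, where 3.63% of all tested genes had a lower difference in null glands. Of the 14 luminal keratin and junction genes 9 had a lower gate-to-stroma difference in null glands, and 8 without the exchanged libraries. Epcam was at 419 and 450 CPM in wild-type basal against 67.5 and 189 CPM in wild-type stroma, so the wild-type gate was above its stroma and the null gate below. The interaction was -3.90 (edgeR adjusted p = 0.00226) and was called in every alternative. Both sides enter it, as Epcam RNA was lower in the null than in the wild-type gate and higher in null than in wild-type stroma. The same holds for Krt8, whose null levels are given above. Krt8 was at 182 and 171 CPM against 38.4 and 44.5 CPM in wild-type glands, with an interaction of -4.56 (edgeR adjusted p = 0.00367). Its call ended without the null stroma of A6, either wild-type basal library or the wild-type stroma of A1. Of 9 hormone-sensing genes 6 were lower, as many as without the exchanged libraries but 1 without the basal or the stromal library of A1, and of 12 secretory genes 5 (4 without them). Of the 16 basal and myoepithelial genes other than Krt14, 5 were lower and 2 without the exchanged libraries, with Col17a1, a hemidesmosome collagen, at 7.37 and 1.03 CPM in the null gate and 194 and 297 CPM in wild-type basal. The wild-type stroma of A2 held basal epithelial RNA that the stroma of A1 did not (Krt14 at 90.2 and 2.23 CPM), and the calls of these genes changed with the library left out.

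The levels of Pecam1, Fabp4 and Cdh19 in the remaining fractions of the null glands are given as values with no test, and were below those of the gate. Other listed genes were not: Sox10 was at 79.3 CPM and Mcam at 203 CPM in the luminal-basal library of A5 by the rule, and Erbb3 at 207 and 154 CPM in the luminal libraries of A5 and A6. Pecam1 was at 43 and 33.9 CPM in the luminal libraries of A5 and A6 and at 7.87 and 40.3 CPM in their luminal-basal libraries, the first of which is the exchanged one. Fabp4 was at 119 and 53.8 CPM in luminal and 19.4 and 43 CPM in luminal-basal. Cdh19 was at 0.512 and 0.383 CPM in luminal and 0 in both luminal-basal libraries. The order of Pecam1 levels at 12 months thus ran from the null basal gate through wild-type basal to null stroma and the luminal fractions, with null stroma of A6 and the luminal library of A5 within each other's spread.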

How the data were processed

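RNA of EpCAM- and CD49f-sorted cells was amplified with the Ovation V2 system before library construction, per the labels' protocols. TopHat2 2.0.13, HTSeq and the GRCm38 build are named in the submitters' processing notes. The strand setting of the counting is not given in the sources used here. All deposited values are raw gene counts for 45706 genes in 26 libraries.

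Counts were fitted with edgeR 4.0.16 (R 4.3.3) by the quasi-likelihood test with robust dispersions and TMM factors, over all 26 libraries, with 13 groups of 2 libraries after the exchange of the 2 A5 libraries and the pool as a block. Low genes were removed with filterByExpr (minimum count 10, minimum total 15), which left 15917. The fit had 9 residual degrees of freedom, and p-values were adjusted by the Benjamini-Hochberg method at 0.05. CPM used effective library sizes. Cell fractions of a pool come from the same 3 mice, which is why the pool is a block; deviations of the 15 pairs of same-pool libraries correlated at 0.00279 to 0.300, and 8 were above 0.1. Alternatives included DESeq2 1.42.0. On simulated counts for this comparison (15555 genes), the fit called 42 of 95 genes changed 4-fold (44.2%), 69 of 97 changed 8-fold (71.1%) and 4 of 15363 unchanged genes. The simulated counts used the fitted dispersions with the same spread in every library. An uneven spread among libraries was not simulated, so these rates may be too favourable.

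The members and the 28 gene lists were chosen with earlier results of these data known. Named genes were a fixed set of markers, the 12 largest called rises and falls, 6 interactions each way, and up to 4 genes per list. The rises, falls and interactions had 10 CPM or more in the highest group. Rises and falls also had the same sign in both pools and no overlap of gate and stromal libraries. No such rule was set for the interactions. Other list members were named after their values were seen, and a few genes that the rule names are not reported here. Motif and start-site windows came from RefSeq (GRCm38.p6), and gene positions from GENCODE for GRCm38. Figures were drawn with matplotlib 3.10.9.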

Additional observations from a re-analysis of the deposited data

Results flagged for a closer look

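The step from stroma to the basal gate differed between null and wild-type glands for 865 genes by the interaction test (edgeR's quasi-likelihood test, Benjamini-Hochberg adjusted p below 0.05). Genotype and pool cannot be told apart in this test. Among the genes with a lower difference in null glands, the log2 interaction was -3.90 for Epcam, -4.56 for Krt8 and -3.36 for Krt18, all epithelial. It was -8.89 for Ctnnd2, -6.50 for Sowahb, -4.74 for Sv2c and -6.62 for Tph1.

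Csdc2, Irx4, Capn6, Car12 and Rap1gap2 had 0 counts in both null gate libraries, and their fitted interactions of -10.52, -9.86, -9.78, -9.54 and -9.14 depend on the prior count and are no bound. With the null gate set to 3 counts over the group, their wild-type basal means were at least 87-fold, 43.3-fold, 48.3-fold, 34.6-fold and 29.5-fold higher. Csdc2 and Rap1gap2 were called in 15 of 16 alternatives, Capn6 in 14, Irx4 in 10 and Car12 in 5. The call of Car12 ended without the exchanged libraries and when any 1 of the null libraries was left out.

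Among the genes with a higher difference in null glands, Cdh19, Rorb and Galnt13 had 0 counts in both wild-type basal libraries, and their fitted values of 10.61, 12.65 and 10.84 carry the same limit. Rorb stood at 3.49 and 99.9 CPM in the gate of A5 and A6, at least 185-fold above wild-type basal in the mean, and Galnt13 at 0.194 and 63.1 CPM, at least 113-fold. Most of either level came from the gate of A6, and without that library neither was called (edgeR adjusted p = 0.14 for Rorb and 0.383 for Galnt13, which has 1 count in the gate of A5). Rorb was also not called without the exchanged libraries (edgeR adjusted p = 0.0825). Of 16 alternatives Rorb was called in 6 and Galnt13 in 10. The log2 interaction was 7.26 for Slc35d2, 6.39 for Slc16a9 and 6.31 for Omd, with calls in 8, 10 and 8 of 16 alternatives. The 3 calls ended without the null stroma of A6 and without each of the 4 wild-type libraries, and those of Slc35d2 and Omd also without the gate of A6.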

How the results depend on the processing

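The comparison called 1708 genes. The count was 957 in a fit of only the libraries compared, 2779 with DESeq2, 1014 with the labels as deposited, 1051 without the exchanged libraries and 3699 with pool A6 alone, and 354 to 4039 with 1 library left out. It was 1608 without the replicate block, 1713 with the size factors of DESeq2 and 2404 with no filter on low counts. The interaction called 865 genes. Its count was 1530 with no filter, 351 in a fit of only the libraries compared, 1588 with DESeq2, 363 with the labels as deposited, 571 without the exchanged libraries and 2743 with pool A6 alone, 182 to 2723 with 1 library left out, and 679 without the replicate block. Without that block 11 named genes lost their call in the first comparison and Galnt13 did in the interaction, where Krt14 is left aside as untested, and none gained one. Of the genes called in the first comparison 48.2% were higher, against 53.2% without the block, 37.4% without the exchanged libraries and 36.4% with pool A6 alone. With the labels as deposited the log2 difference turned to -0.49 for Itga6, -0.37 for Mcam and -1.09 for Itgb4. In that fit the A5 library with Krt14 at 1025 CPM stood in for stroma. The cause of these shifts and of the others was not tested. Where 1 library is left out its group rests on a lone sample, which is assumed to vary like the other groups. With 2 libraries a side and as few as 3194330 counts in a library, a low gene that was not called may still differ.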
